A study of Mus musculus with 6 samples.

Results

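The regions described here are the array probes that lie over 3 kb from every transcription start annotated for them. They were chosen by position alone: a non-control probe with a chromosome position was kept when each start listed for it in the scanner files of the Dnmt1-KO arrays was over 3 kb away. The rule gave 111289 of 473642 such probes (23.5%), with 55692 on array design 1 and 55597 on array design 2. Of these, 58838 lay upstream of all their listed starts, 22505 lay downstream of all of them, and 29946 lay upstream of some and downstream of others. The last kind is called between starts below. Upstream and downstream follow the direction of each gene, so such a probe need not lie between its starts in position. They are called distal probes below, and the other 362353 probes are called near probes. The upstream members were confined to a narrow belt, with a median distance of 4191 bp and 95% of them within 5379 bp. The downstream members reached much farther from their starts, with a median of 6905 bp and a 95th percentile of 53581 bp.

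The study mapped Rybp by chromatin immunoprecipitation on a promoter array set of 2 designs, in wild-type (WT) mouse embryonic stem cells and in cells with a constitutive knockout of Eed (Eed-KO) or of Dnmt1 (Dnmt1-KO). The 6 arrays gave 1 array per genotype and design, and the designs cover different chromosomes apart from 8 and 9, so no probe was measured more than once in a genotype and no test between genotypes was possible. Immunoprecipitated DNA carried Cy5 and input DNA of the same cells carried Cy3, both after amplification with T7 RNA polymerase. Per the labels, cells of all 3 genotypes were grown with serum and ESGRO on irradiated fibroblast feeders or on gelatin, and which surface each culture had, which line it was and how many clones or cultures were used are not stated in the sources used here. No expression was measured, so the label of embryonic stem cell could not be checked against markers.

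Rybp belongs to the variant forms of Polycomb complex PRC1, which put ubiquitin on histone H2A. Eed is needed by the other complex, PRC2, to methylate histone H3, and canonical PRC1 is recruited through that mark while its variant forms can bind without it. Dnmt1 copies DNA methylation onto newly made strands, and in embryonic stem cells Polycomb proteins are known mostly at CpG islands of silent developmental genes, which are usually free of that methylation.

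The measure used throughout is the level, the log2 ratio of Cy5 to Cy3 signal of a probe minus the median of its array, so a level of 1 is 2-fold above the array's median. The probes are 45 to 60 bases long, and neighbouring ones were joined: for each gene and side, the run of 6 neighbouring distal probes within 3 kb with the highest average over the 3 genotypes, each divided by the spread of its array, is called its window. A window is called bound in a genotype when the mean of its 6 probes is at least 1. The SD given with a window is the scatter of its 6 probes and the SE of a difference is over the same 6 probes, and neither measures the spread between cultures.

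The probe with the highest WT level in each of the 3 highest upstream and the 3 highest downstream windows is printed below. CpG is in capitals, sequences run 5′ to 3′ as the arrays carry them, and positions are those of the Dnmt1-KO scanner files, whose genome build and strand are not given in the sources used here.
Igf2, chr7:142473896-142473945, 5041 bp upstream: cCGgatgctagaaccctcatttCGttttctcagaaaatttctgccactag
Id2, chr12:25689539-25689594, 4418 bp upstream: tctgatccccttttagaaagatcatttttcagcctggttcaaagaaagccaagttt
Neurog2, chr3:127620920-127620971, 4221 bp upstream: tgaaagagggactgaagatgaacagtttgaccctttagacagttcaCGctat
Lmx1b, chr2:33458512-33458571, 3979 bp downstream: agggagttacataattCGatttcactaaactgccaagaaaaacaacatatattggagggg
Zfp319, chr8:98217636-98217680, 3421 bp downstream: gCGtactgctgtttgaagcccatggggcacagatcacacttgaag
Gad1, chr2:70367275-70367321, 4247 bp downstream: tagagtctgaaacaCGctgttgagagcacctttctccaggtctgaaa

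These 6 probes held 0 to 2 CpG each, with none in the Id2 probe and 2 in the Igf2 probe. Other probes of the highest upstream windows held more, such as 1 at Lef1 with 8. A single probe does not show the CpG content of the DNA around it. In WT their levels were 2.17 at Igf2, 1.89 at Id2, 1.72 at Neurog2, 1.73 at Lmx1b, 1.71 at Zfp319 and 1.62 at Gad1. In Eed-KO the same probes read 2.79, 1.52, 1.55, 1.64, 1.18 and 1.18, and in Dnmt1-KO 4.40, 2.20, 2.59, 1.95, 2.94 and 1.80. All 6 were chosen for their WT value, so that value is a description. Distal probes as a whole were poor in CpG, with a mean of 0.390 per probe upstream and 0.493 downstream against 0.800 in near probes, and 68.5% of the upstream members held none.

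Across the arrays the distal probes sat below the array median in each genotype. Upstream, the median level was -0.10 in WT (quartiles -0.28 and 0.09, 58803 probes), -0.09 in Eed-KO (-0.31 and 0.13) and -0.23 in Dnmt1-KO (-0.68 and 0.15). Downstream it was -0.13 in WT (quartiles -0.31 and 0.05, 22492 probes), -0.09 in Eed-KO (-0.30 and 0.12) and -0.20 in Dnmt1-KO (-0.65 and 0.22). Near probes had medians of 0.04, 0.03 and 0.09 in the same order. The 2 designs gave upstream medians within 0.01 of each other in every genotype, and the probes between starts lay at -0.12, -0.11 and -0.22. The SD of single upstream probes was 0.33 in WT, 0.38 in Eed-KO and 0.72 in Dnmt1-KO.

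High single probes were rare among the distal members. In WT, 591 of 111219 distal probes (0.531%) reached a level of 1, where 2.59% of all probes used did. The counts were 812 (0.730%) in Eed-KO against 3.13% of all probes, and 4968 (4.47%) in Dnmt1-KO against 15.2% of all probes. Near probes reached a level of 1 in 3.23%, 3.87% and 18.4% of cases, so the distal share was the lower in each genotype. In WT the share was 0.616% upstream and 0.405% downstream. The downstream share differed between designs, at 0.561% on design 1 and 0.249% on design 2, while the upstream share was 0.581% and 0.651%.

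The Dnmt1-KO arrays differ from the others in ways that touch each comparison below. They were read on a different scanner model with a later version of the image software, and their spread over all probes, as the normal-scaled median absolute deviation, was 0.80 and 0.74 against 0.35 and 0.34 in WT and 0.37 and 0.38 in Eed-KO. Genotype and scanning conditions cannot be told apart there. Values in Dnmt1-KO are before scaling unless stated, and for the main window counts and many of the named windows values after scaling are given as well, where scaling sets the 3 arrays of a design to a common spread. After scaling, the share of distal probes at 1 or more was 1.48% in WT, 1.64% in Eed-KO and 1.57% in Dnmt1-KO. The share of near probes was then 8.18%, 7.46% and 8.97%.

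**Figure D1:**
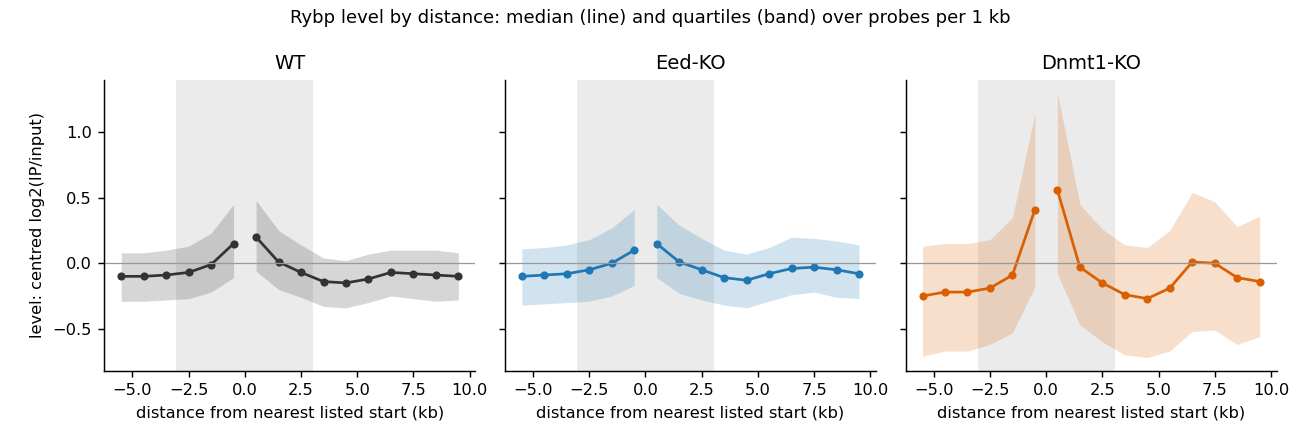
Median level (line and points) and quartiles (band) of probes in 1 kb bins of distance from the nearest listed start, upstream at negative and downstream at positive distances, for WT, Eed-KO and Dnmt1-KO, with the range within 3 kb shaded. In WT the median falls from 0.15 in the first kb upstream to -0.09 between 3 and 4 kb, and in Dnmt1-KO it falls from 0.41 to -0.22.

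The median level fell with distance and had nearly flattened by the 3 kb limit. Upstream in WT, the median was 0.15 in the first kb, -0.01 in the second, -0.07 in the third, -0.09 from 3 to 4 kb, -0.10 from 4 to 5 kb and -0.10 from 5 to 6 kb. The share of probes at 1 or more kept falling through the same bins, from 5.01% to 2.08%, 0.997%, 0.685%, 0.640% and 0.374%. Just inside the limit, from 2750 to 3000 bp upstream, 0.853% of 6682 WT probes reached 1, and just outside it, from 3000 to 3250 bp, 0.768% of 6384 did. Downstream, the WT median went from 0.20 in the first kb to -0.07 in the third and -0.14 between 3 and 4 kb. It was -0.14 both from 2750 to 3000 bp and from 3000 to 3250 bp downstream. The downstream WT share at 1 or more was 1.21% in the third kb and 0.539% between 3 and 4 kb.

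Farther downstream the course was not monotonic. Between 6 and 7 kb the Dnmt1-KO median was 0.01 with 11.3% of 821 probes at 1 or more, and between 4 and 5 kb it was -0.27 with 4.98% of 3976 probes. The mean CpG number per probe was 0.558 and 0.472 in those bins. Some downstream members lie close to a start that the files list for other probes: rebuilding 45026 starts from the listed distances placed 4973 of the 22492 downstream members (22.1%) within 3 kb of one, against 11 upstream members and 162 between starts. Without them the 6 to 7 kb bin still stood at -0.04 with 12.1% of 488 probes at 1 or more, against -0.31 and 3.64% of 3599 probes at 4 to 5 kb.

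**Figure D2:**
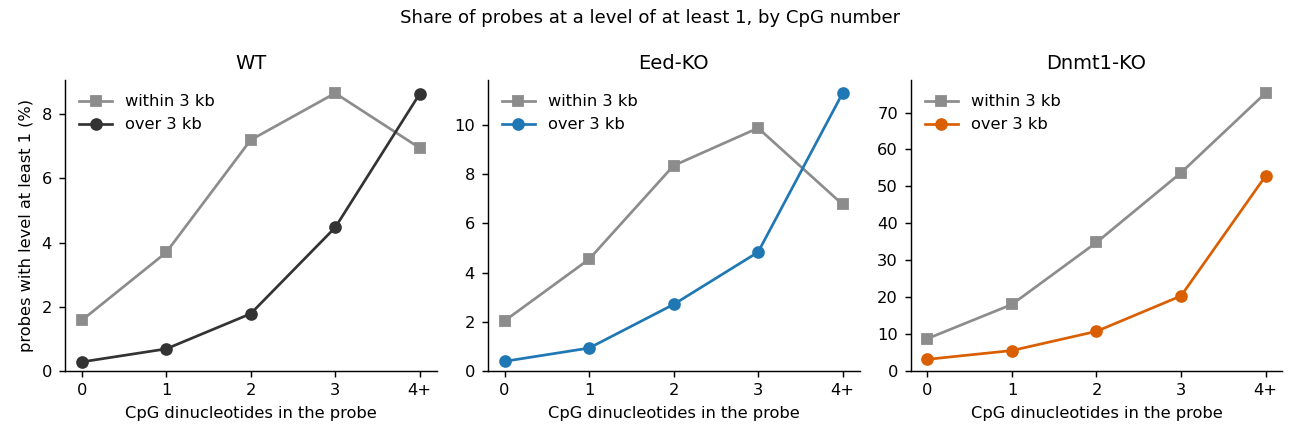
Share of probes with a level of at least 1 (percent) against the number of CpG dinucleotides in the probe, for probes over 3 kb (coloured circles) and within 3 kb (grey squares) of a start, in each genotype, with a separate axis range per panel. Both curves climb from 0 to 3 CpG, and in the pooled designs the WT and Eed-KO curves cross at 4 or more, a class with 301 distal probes.

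At equal CpG number the distal probes were enriched less often than near probes up to 3 CpG. In WT, 0.276% of 74546 distal probes without CpG reached 1, against 1.57% of 196600 near probes. With 1 CpG the shares were 0.683% and 3.69%, with 2 CpG 1.78% and 7.20%, and with 3 CpG 4.47% and 8.66%. At 4 or more CpG the pooled order in WT turned, with 8.64% of 301 distal and 6.95% of 14969 near probes, but the designs disagreed. On design 1 the WT shares were 5.76% of 139 distal and 7.14% of near probes, and on design 2 they were 11.1% of 162 and 6.75%. In Eed-KO the order turned on both designs, with pooled shares of 11.3% and 6.77%. In Dnmt1-KO the shares in this class were 52.8% distal and 75.3% near before scaling and 26.9% and 39.9% after it. With the trend on GC content removed as well, they were 10.6% and 10.1%, against 13.3% and 8.18% in WT. For probes with 2 CpG the WT shares on designs 1 and 2 were 2.16% and 1.40% distal and 7.61% and 6.81% near.

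The Dnmt1-KO minus WT difference of distal probes rose with CpG number before scaling, from a median of -0.13 without CpG to -0.08, 0.02, 0.17 and 0.73 with 1, 2, 3 and 4 or more. Near probes showed a similar climb, from -0.05 to 0.97. After scaling alone the distal medians were 0.01, 0.00, 0.01, 0.04 and 0.15. When the trend of each array on probe GC content was removed as well, they lay between -0.03 and 0.00 in all 5 classes. The Eed-KO minus WT medians of distal probes before these corrections were 0.02, 0.01, 0.02, 0.00 and -0.05.

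Neighbouring distal probes up to 300 bp apart had levels that correlated across 75006 pairs with Pearson r of 0.39 in WT, 0.40 in Eed-KO and 0.63 in Dnmt1-KO, against 0.60, 0.55 and 0.76 for near pairs. The same distal probes correlated between WT and Eed-KO with r of 0.59 and between WT and Dnmt1-KO with r of 0.28, against 0.75 and 0.54 for near probes. These pairs share arrays, probe sequence and overlapping DNA fragments, and the values only describe how much of the distal signal is shared.

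Joining probes gave 9060 distal windows, of which 4994 were upstream, 1600 downstream and 2466 between starts. In WT 45 of them were bound (0.497%), where 3.57% of the 25906 distal and near windows together were. Of the 45, 29 were upstream, 5 downstream and 11 between starts. Eed-KO had 59 bound windows (0.651%), with 38, 10 and 11 on the 3 kinds of side, where 4.02% of all windows were bound. Dnmt1-KO had 353 (3.90%), with 165, 109 and 79, where 27.3% of all windows were bound. For comparison, the lowest window of each gene fell to -1 or below in 5 cases in WT, 6 in Eed-KO and 675 in Dnmt1-KO, so negative excursions of the same size outnumbered bound windows in Dnmt1-KO and not in the other genotypes. These counts are before scaling, where a fixed size of 1 is smaller relative to the wider spread of the Dnmt1-KO arrays. No count of low windows is given after scaling. After scaling, the bound counts were 128 in WT (1.41%), 118 in Eed-KO (1.30%) and 114 in Dnmt1-KO (1.26%). Of the near windows, 14.6%, 11.5% and 18.2% were bound after scaling, in the same order.

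The upstream windows with the highest WT level belonged to a growth factor gene and to transcription factor genes of development. Igf2, which encodes a fetal growth factor and is imprinted, was first: its 6 probes from 3811 to 5041 bp upstream (chr7:142472662-142473945) had WT levels of 1.55, 1.54, 1.38, 2.05, 0.48 and 2.17. One probe, 4857 bp upstream, was low in WT and in Eed-KO (0.20), and the other 5 were above 1.3 in WT. The window mean was 1.53 ± 0.60 (SD over 6 probes) in WT, 1.89 ± 0.93 in Eed-KO and 2.99 ± 0.96 in Dnmt1-KO. Neurog2, a proneural basic helix-loop-helix factor, had the most even of the 3 top profiles (chr3:127620279-127621146). Its 6 WT values, ordered from the far end, were 1.35, 1.39, 1.30, 1.64, 1.72 and 1.33, with a mean of 1.45 ± 0.18. Its mean was 1.36 ± 0.24 in Eed-KO and 1.87 ± 0.70 in Dnmt1-KO, where the probes ran from 0.99 to 2.76.

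Id2, an inhibitor of basic helix-loop-helix factors, stood at 1.46 ± 0.42 in WT, 1.55 ± 0.46 in Eed-KO and 1.71 ± 0.56 in Dnmt1-KO (chr12:25688949-25689766). Msx1, a homeobox repressor of craniofacial development, stood at 1.45 ± 0.30, 2.03 ± 0.36 and 2.47 ± 0.91 (chr5:38115910-38116850). Lef1, a nuclear partner of beta-catenin in Wnt signalling, stood at 1.42 ± 0.36, 1.39 ± 0.51 and 2.89 ± 0.64 (chr3:131095162-131096370). At Id2 the 3 means differed by less than the SD over the probes, which does not measure a paired difference. At Msx1 and Lef1 the Dnmt1-KO mean was over 1 above WT. After scaling the order turned, with Lef1 at 2.07 in WT and 1.82 in Dnmt1-KO and Msx1 at 2.11 and 1.56.

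Barx1, a homeobox gene of tooth and stomach mesenchyme, was at 1.36 ± 0.13 in WT, 1.53 ± 0.18 in Eed-KO and 1.18 ± 0.41 in Dnmt1-KO (chr13:48670836-48671699). Ebf3, an early B cell factor family member, was at 1.27 ± 0.17, 1.59 ± 0.40 and 2.40 ± 0.33 (chr7:137156270-137157068). Pax5, the paired-box factor of B lymphocytes, was at 1.25 ± 0.34, 1.63 ± 0.45 and 3.03 ± 0.80 (chr4:44734696-44735823). The 8 upstream windows above were bound in all 3 genotypes before scaling. Levels of all 3 genotypes had entered the choice of each run, which favoured this outcome. In each of them the best window of the same gene within 3 kb was also bound in WT, with levels from 1.08 at Id2 to 1.44 at Lef1. After scaling, 7 of these 8 windows were lower in Dnmt1-KO than in WT, with Igf2 at 2.23 in WT and 1.88 in Dnmt1-KO, Id2 at 2.09 and 1.12, Neurog2 at 2.12 and 1.18, Barx1 at 1.94 and 0.77 and Ebf3 at 1.85 and 1.52. Pax5 was the exception, at 1.82 and 1.91.

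**Figure D3:**
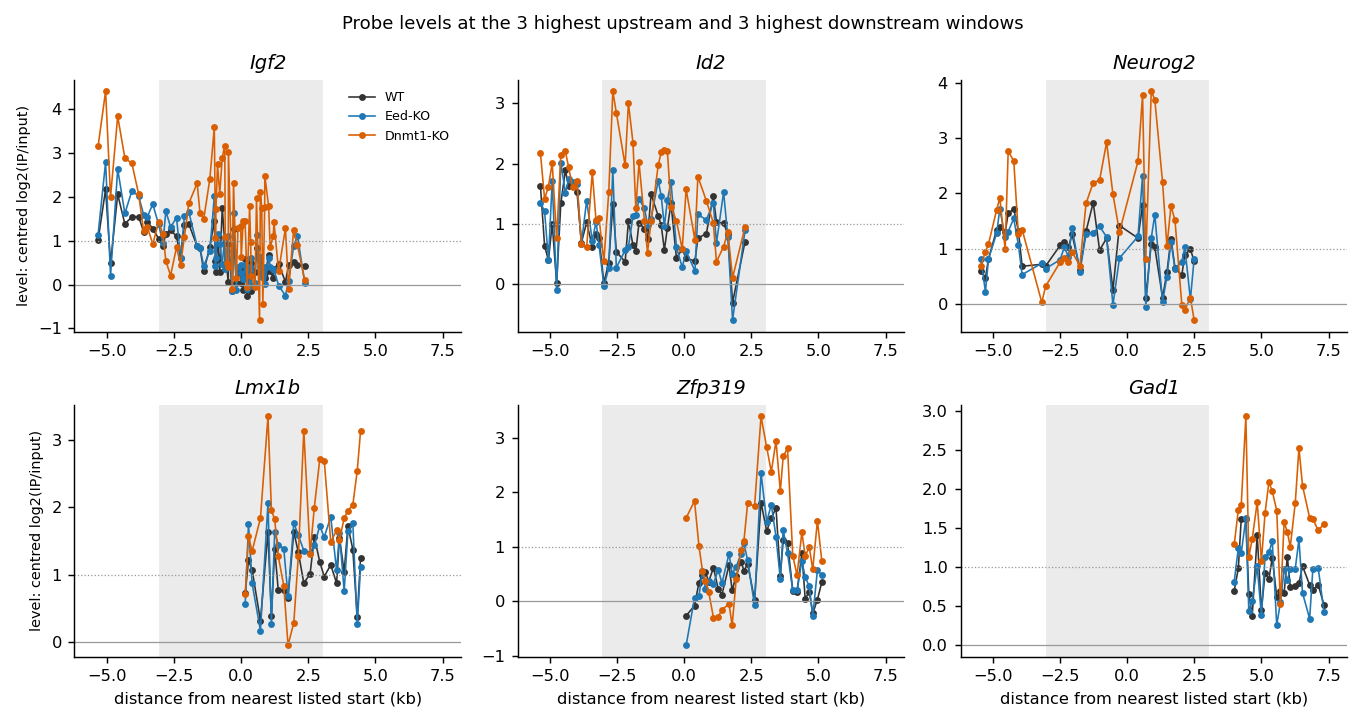
Level of every probe of 6 genes against distance from the nearest listed start (kb), in WT (dark), Eed-KO (blue) and Dnmt1-KO (orange), with the range within 3 kb shaded, a dotted line at a level of 1 and each panel on its own vertical axis. At Zfp319 the high probes form a block from 2863 to 3851 bp downstream, which crosses the 3 kb limit, and at Id2 raised probes continue across the limit toward the start.

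The 5 bound downstream windows included 1 transcription factor gene of the developmental list. Lmx1b, a LIM-homeobox factor of limb and kidney, was highest (chr2:33458335-33459211, centred 3751 bp downstream), with WT probe values of 1.38, 1.73, 1.04, 1.55, 0.88 and 1.15. Its means were 1.29 ± 0.32 in WT, 1.45 ± 0.44 in Eed-KO and 1.75 ± 0.23 in Dnmt1-KO. Zfp319, a zinc finger gene, followed at 1.20 ± 0.43, 1.17 ± 0.47 and 2.61 ± 0.35 (chr8:98217206-98218026). Gad1, which encodes an enzyme of GABA synthesis, stood at 1.11 ± 0.52, 1.01 ± 0.44 and 1.80 ± 0.62 (chr2:70367167-70367916), and there was no run of 6 near probes under its annotation to compare it with. After scaling, Lmx1b stood at 1.88 in WT and 1.10 in Dnmt1-KO, Zfp319 at 1.74 and 1.64, and Gad1 at 1.62 and 1.13. Lrrc4b, a synaptic adhesion gene, was bound 19231 bp from its nearest listed start at 1.02 ± 0.50, 1.09 ± 0.45 and 1.58 ± 0.45.

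Exoc3l, an exocyst-related gene, stood at 1.11 ± 0.67 in WT, 0.91 ± 0.81 in Eed-KO and 2.25 ± 0.53 in Dnmt1-KO (chr8:108179255-108180214), but this window lies 1636 bp from a start listed only for other probes. Leaving out the members close to such starts gave 4 bound downstream windows in WT in place of 5, 6 in Eed-KO in place of 10 and 67 in Dnmt1-KO in place of 109. Tradd, an adaptor of the tumour necrosis factor receptor, reached 1.00 ± 0.24 in WT, just short of the bound level before rounding, and 1.14 ± 0.38 and 2.57 ± 0.45 in the knockouts. Klhl31 followed at 0.99 ± 0.29 in WT, in a window that itself lies 1180 bp from another start.

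Between starts, 11 windows were bound in WT, and the 8 highest were named after their values were seen. They belonged to Zfp593 (1.36 ± 0.49), Nkx2-2 (1.24 ± 0.28), Hoxd10 (1.17 ± 0.12), Zeb2 (1.15 ± 0.47), Hoxa11 (1.13 ± 0.31), Hoxd11 (1.09 ± 0.23), Pax6 (1.07 ± 0.18) and Irx3 (1.03 ± 0.52). Apart from the zinc finger gene Zfp593, these encode transcription factors of patterning or neural development. In the Hox clusters genes lie close together, so a probe over 3 kb from one start often lies between others. Zfp593 stood at 1.55 ± 0.38 in Eed-KO and 2.98 ± 0.26 in Dnmt1-KO, while its window within 3 kb was at 0.39 in WT.

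Most WT-bound distal windows lay at genes whose start region was bound too. Of the 45, 33 were accompanied by a bound window of the same gene within 3 kb, 11 were not, and 1 gene had no such window. Of all near windows, 5.23% were bound in WT, 5.83% in Eed-KO and 39.9% in Dnmt1-KO. Upstream the split was 24 accompanied and 5 not, and downstream it was 1 accompanied, 3 not and 1 without a near window. In Eed-KO 42 of 59 (71.2%) and in Dnmt1-KO 199 of 353 (56.4%) were accompanied. The Dnmt1-KO share lay much closer to its share of all near windows than the other 2 did. Read the other way, 29 of 579 genes whose near window was between 1 and 1.5 in WT had a bound distal window (5.01%), and 4 of 47 at 1.5 or more did (8.51%). The share was 6 of 2119 (0.283%) for near levels from 0.5 to 1 and 5 of 4508 (0.111%) for levels from 0 to 0.5. None of the 1595 genes with a near level below 0 had one. The near and distal windows of a gene share an array and lie a few kb apart, so these shares describe adjacency.

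Among the unaccompanied WT windows, the highest upstream was that of Tbx20, a T-box gene of the heart, at 1.11 ± 0.47 with a near window at 0.87. The highest downstream was that of Zfp319, with a near window at 0.71. Kif27, a kinesin gene, was bound at 1.10 ± 0.52 with its near window at 0.04 in WT, 0.07 in Eed-KO and 0.03 in Dnmt1-KO. Col17a1, a collagen of skin junctions, was bound at 1.06 ± 0.47 with its near window at 0.03; Kif27 and Col17a1 were picked out here after their values were seen.

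**Figure D4:**
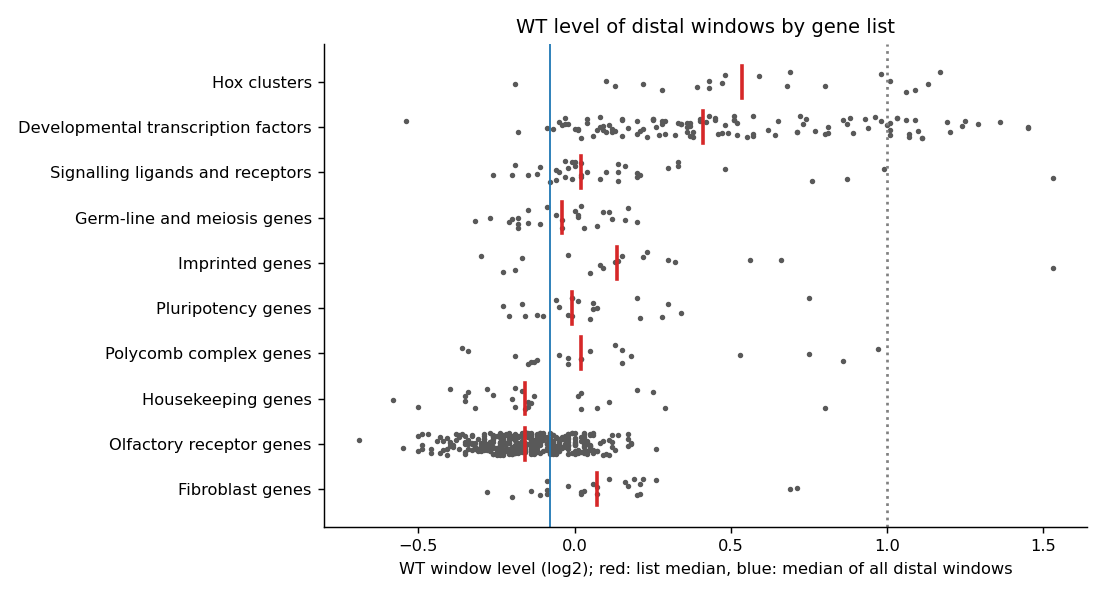
WT level of each distal window (points, log2) by gene list, with the list median in red, the median of all 9060 distal windows in blue and a dotted line at the bound level of 1. Hox and developmental transcription factor windows have medians of 0.53 and 0.41 and spread past 1, while olfactory receptor windows lie below 0.3.

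Read by gene list, developmental regulators held 26 of the 45 WT-bound windows, and these lists were drawn up with results of these data known. Of 116 windows at developmental transcription factor genes (113 of 137 listed genes had one), 21 were bound in WT, with a median level of 0.41. Of 20 windows in the Hox clusters, 5 were bound, with a median of 0.53 and Hoxd10 as the highest. Over all 9060 distal windows, 45 were bound and the median was -0.08. The 26 windows on these 2 lists were 57.8% of the WT-bound ones, and the lists held 1.49% of all distal windows. They held 26 of the 59 bound in Eed-KO (44.1%) and 40 of the 353 bound in Dnmt1-KO (11.3%).

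The other lists held few bound windows in WT. Signalling ligands and receptors had 1 of 38, which is Igf2, also the 1 bound window of 18 at imprinted genes. Germ-line and meiosis genes had 0 of 26, with Figla, an oocyte factor, highest at 0.20 ± 0.18, while 27 of 54 near windows of that list were bound. Pluripotency genes had 0 of 23, led by Tfap2c at 0.75 ± 0.16, and Polycomb complex genes had 0 of 21, with a median of 0.02. Housekeeping genes had 0 of 27, led by the ribosomal protein gene Rpl9 at 0.80 ± 0.34, and had a median of -0.16. Olfactory receptor genes had 0 of 377, led by Olfr414 at 0.26 ± 0.14, with a median of -0.16. Fibroblast genes, listed because feeder cells may have been present, had 0 of 25, led by Pdgfra at 0.71 ± 0.44.

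Bound distal windows were also richer in CpG than other distal windows. The median window held 2.39 CpG per 100 bases when bound in WT against 0.621 over all distal windows and 3.26 for near windows bound in WT. The median GC content was 44.3% against 40.0%. They were also nearer to the start, at a median of 3886 bp against 4224 bp.

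Distal windows had similar levels in Eed-KO and WT. Of the 45 WT-bound windows, 34 were bound in Eed-KO as well and 27 had a positive difference. None of the 70 windows bound in WT or Eed-KO was higher by 1 or more, where 0.00386% of all windows were, and none was lower by 1 or more, where 0.0% were. A drop of 1 could hardly be seen. The median WT level of the WT-bound windows was 1.10, and Eed-KO levels had entered the choice of each run. The count of lower windows therefore does not speak of smaller losses. At a smaller size of 0.5, 6 windows were higher (0.0662% of distal windows) and 0 lower. After scaling, 13 were higher by that size (0.143%) and 6 lower (0.0662%). No share over all windows is given at 0.5, so these counts are not compared with near windows. Among windows whose probes 1, 3 and 5 averaged at least 1 in WT, the median difference of probes 2, 4 and 6 was 0.10 over 46 windows (quartiles -0.10 and 0.23), and -0.04 over 133 windows after scaling. All 6 probes had entered the choice of the run, so these values are a description. Near windows read the same way gave 0.02 over 990 windows.

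The highest Eed-KO differences, among windows with all 6 probes in 1 direction, were at Zfp36l1, C1ql4/Dnajc22, Msx1 and Ccdc151. Zfp36l1, which encodes an mRNA decay factor, stood at 0.63 ± 0.17 in WT and 1.25 ± 0.31 in Eed-KO, a difference of 0.62 (SE 0.08 over 6 probes). The window shared by C1ql4 and Dnajc22 stood at 0.80 ± 0.34 and 1.39 ± 0.51 (difference 0.59, SE 0.13). Msx1 differed by 0.58 (SE 0.12), and its near window by more, from 1.21 to 2.12. Ccdc151, a gene of motile cilia, stood 12162 bp downstream at 0.51 ± 0.41 and 1.09 ± 0.40 (difference 0.58, SE 0.11), and this window lies 922 bp from a start listed for other probes. The input signal of the Zfp36l1 window on chromosome 12 was 0.20 higher in Eed-KO than in WT on the log2 scale, and the part of input in the difference was not tested. Without chromosomes X, Y, 12, 14 and 17, 39 windows were bound in WT and 47 in Eed-KO.

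The lowest Eed-KO differences were smaller. Spag6, a gene of the sperm flagellum, stood at 1.03 ± 0.53 in WT and 0.61 ± 0.50 in Eed-KO (difference -0.42, SE 0.09). Hoxa11, a limb and reproductive tract patterning gene, stood at 1.13 ± 0.31 and 0.87 ± 0.34 (difference -0.26, SE 0.11). Kif27 differed by -0.18 (SE 0.07) and Tbx15, a T-box gene of skeletal development, by -0.17 (SE 0.06). At each of these 4 windows the 2 means lay within 1 SD of the probes of each other. That SD does not measure a paired difference, for which the SE is given. By the rule that picked these windows, no probe in them was higher in Eed-KO than in WT.

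**Figure D5:**
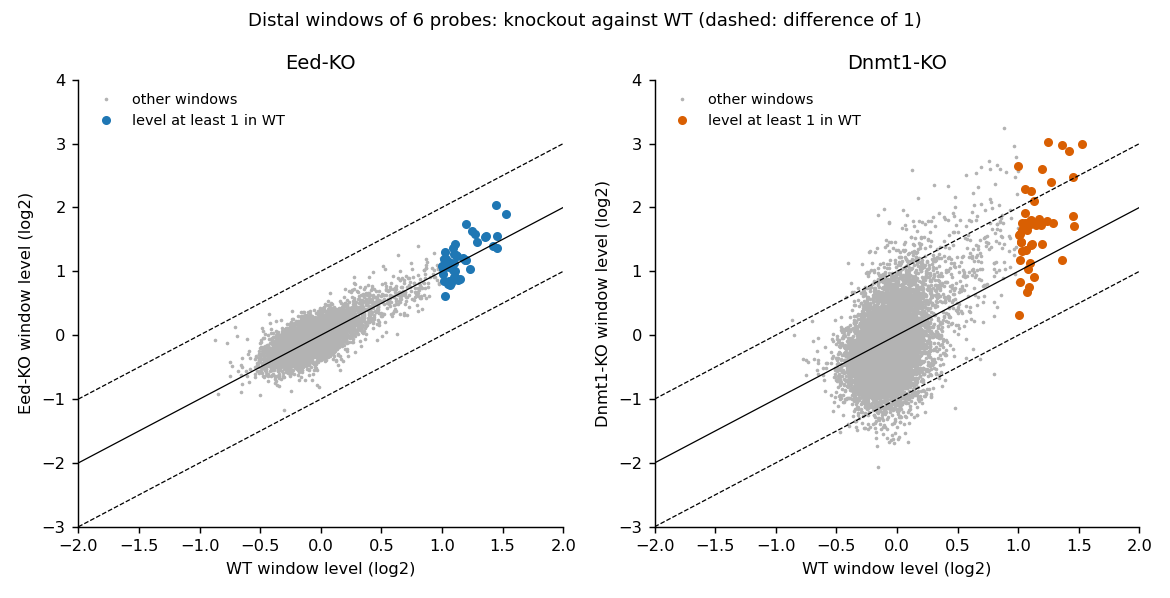
Level of each of the 9060 distal windows in Eed-KO (left) and Dnmt1-KO (right) against WT (log2), with the 45 windows bound in WT coloured, a solid line of equality and dashed lines at differences of 1. In Eed-KO the windows follow the line of equality and no WT-bound window leaves the dashed band, while in Dnmt1-KO the cloud is wider in both directions.

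In Dnmt1-KO the distal windows differed from WT more often, and the direction depended on scaling. Before scaling, 173 windows were higher by 1 or more (1.91%), where 13.4% of all windows were, and none of the 358 windows bound in either genotype was lower by 1 or more, where 0.0154% of all windows were. The limit given for Eed-KO holds for this count of lower windows too, since Dnmt1-KO levels had entered the choice of each run. By side, 75 of the 173 were upstream (1.50% of upstream windows), 67 downstream (4.19%) and 31 between starts (1.26%). After scaling 10 were higher (0.11% of distal windows) and 7 lower (0.0773%), and no share over all windows is given there. Without the members close to starts listed for other probes, the downstream count was 44 in place of 67. With the GC trend removed, 36 downstream windows were higher and 59 were bound, in place of 67 and 109.

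Of the 45 WT-bound windows, 40 were bound in Dnmt1-KO and 38 had a positive difference. Windows whose probes 1, 3 and 5 averaged at least 1 in WT differed in the other 3 probes by a median of 0.62 (46 windows, quartiles 0.26 and 1.10), and by -0.30 after scaling (133 windows, quartiles -0.64 and -0.02). Windows taken by the same probes in Dnmt1-KO differed by 0.89 (379 windows), and by 0.31 after scaling (130 windows, 90 of them positive). After scaling the sign thus went with the genotype used to take the windows. Near windows taken in WT gave 0.92 (990 windows) and -0.15 (2567 windows). At developmental transcription factor genes the median difference was 0.19 before scaling and -0.27 after it, and in the Hox clusters it was 0.04 and -0.39. At housekeeping genes it was 0.08 and 0.20, and over all distal windows -0.11 and -0.01.

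Of the 173 windows higher in Dnmt1-KO, 8 (4.62%) were on the developmental or Hox lists, where 1.49% of all distal windows and 57.8% of the WT-bound ones were. The median WT level of the 173 was 0.17. They held a median of 1.63 CpG per 100 bases, between the 0.621 of all distal windows and the 2.39 of WT-bound ones. The input signal moved with them: the log2 input of Dnmt1-KO minus WT, centred on each array's median, was 1.40 in these windows and -0.30 over all distal windows. It was 1.32 in the 45 WT-bound windows, and the part of input signal and base composition in these differences was not tested.

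The highest Dnmt1-KO difference was at Wdr45, an autophagy gene on the X chromosome (X:6883859-6884762, 5012 bp downstream), with 0.12 ± 0.22 in WT, 0.06 ± 0.14 in Eed-KO and 2.59 ± 0.89 in Dnmt1-KO. The difference was 2.47 (SE 0.36) before scaling and 1.52 after it, and the window lies 1285 bp from a start listed for other probes. Neurog3, the factor of endocrine pancreas, came next, 3836 bp upstream, with 0.88 ± 0.18, 1.15 ± 0.42 and 3.24 ± 0.32 (difference 2.36, SE 0.13, and 0.87 after scaling). Fhod1, a formin of the actin cytoskeleton, had -0.16 ± 0.29, 0.24 ± 0.49 and 1.88 ± 0.66 (difference 2.04, SE 0.31, and 1.42 after scaling). Nectin4, a cell adhesion gene, had 0.18 ± 0.25, 0.21 ± 0.15 and 2.15 ± 0.49 at 14606 bp downstream (difference 1.98, SE 0.22, and 1.10 after scaling). Wdr45, Fhod1 and Nectin4 were near the array median in WT and Eed-KO, whereas Neurog3 was raised in all 3 genotypes and its near window was bound in WT at 1.22.

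Among windows bound in either of these genotypes whose 6 probes all moved one way, none was lower in Dnmt1-KO before scaling. The 4 smallest differences of that kind were therefore positive, at Snapc2 (0.49, SE 0.16), Elavl2 (0.59, SE 0.20), the cilia gene Ccdc40 (0.60, SE 0.15) and Spata31d1a (0.61, SE 0.12). After scaling, these 4 stood at -0.24, -0.40, -0.20 and 0.07.

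After scaling, the 10 windows higher by 1 or more in Dnmt1-KO included those of Wdr45 (1.52), Dpp9 (1.45), Fhod1 (1.42), Palm (1.26), Fbxl6 (1.25), Nectin4 (1.10), Bnipl (1.06), Lefty2 (1.05) and Sema3f (1.03). Of the 10, 8 were downstream, and the windows of Wdr45, Palm and Bnipl lie within 3 kb of a start listed for other probes. Lefty2, an inhibitor of Nodal signalling, was the 1 upstream window, at 0.30 in WT and 2.36 in Dnmt1-KO before scaling. The 7 windows lower by 1 or more after scaling included those of Wdr13 (-1.54), Bmp2k (-1.24) and Hoxb6 (-1.24). The others were those of Barx1 (-1.17), Hoxd11 (-1.12), Nkx2-3 (-1.09) and Hoxa11 (-1.07). Of the 7, 5 are homeobox genes bound in WT before scaling. To count, a window had to be bound in WT or Dnmt1-KO after scaling, so a lower one was high in WT by rule. The developmental and Hox lists already held 57.8% of the windows bound in WT before scaling. Before scaling Hoxb6 was at 1.01 in WT and 0.31 in Dnmt1-KO, Nkx2-3 at 1.07 and 0.68, and Barx1 at 1.36 and 1.18. These windows are named because their counts are small, after their values were seen.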

How the data were processed

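Scanner files of the 6 arrays were used. Per the file headers, the authors' image software, Agilent Feature Extraction, was version 9.5.3.1 for WT and Eed-KO and 10.1.1.1 for Dnmt1-KO; the submitters' processing notes name 9.5.3.1 for all. Per the file headers, the processed intensities are background-subtracted and dye-normalized; the deposited value table holds log10 ratios that matched the scanner log ratios within 0.001 after a constant for 99.0% to 100.0% of probes, with its centring not stated. No source used here names the genome build.

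Levels are log2(Cy5/Cy3) of the processed intensities minus each array's median over non-control probes. The 70 distal probes with an outlier flag on any array were left out, leaving 111219 (58803 upstream, 22492 downstream, 29924 between starts); saturated probes were kept. Input was well above background for 99.9% of distal probes in WT and Eed-KO and 84.6% in Dnmt1-KO, whose files use a stricter multiplier (13 against 2.6). Scaling divides each array by its median absolute deviation and multiplies by the design's mean. Symbols were updated through RefSeq for 16943 of 17596 accessions, names only. In the older annotation of the WT and Eed-KO files, 976 upstream and 1575 downstream members lie within 3 kb of a start.

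The text names the 8 highest WT windows upstream and downstream, the 4 lowest and 4 highest differences per knockout with all 6 probes in 1 direction, the highest unaccompanied window of each side, and the highest window of each of 10 gene lists. A few windows that these rules pick are not reported here. Members and lists were chosen with earlier results of these data known. With 1 array per genotype and probe, precision is limited by the number of arrays and no p-value is given. The window search was tested on simulated data with independent probes and with planted windows well above the bound level. Real neighbouring probes correlate and real bound windows lie closer to that level. The simulation therefore does not give the rate of false calls or of missed windows here. Tools were Python 3.11, numpy, pandas, statsmodels and limma 3.58.1 (normexp, offset 50). Alternatives changed the background correction, value source, centring, spread, GC trend, filters, distance limit, annotation, chromosomes, array design, bound level and window choice.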

Additional observations from a re-analysis of the deposited data

How the results depend on the processing

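Of 160 comparisons of median levels and median differences with an alternative, 155 did not change sign and 5 did. A shift was set against the SD over single probes, which was larger than the medians themselves. That limit could hardly be passed, so the count speaks only of changes of sign. The upstream Eed-KO minus WT median, 0.01, became -0.01 with normexp background and with centring on the mode. The downstream Dnmt1-KO minus WT median, -0.06, became 0.03 with normexp, 0.06 after scaling and 0.03 with the GC trend removed and scaling. The cause was not tested.

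Counts of bound windows (45 in WT, 59 in Eed-KO, 353 in Dnmt1-KO) moved by over 1.5 times under these alternatives. With normexp they were 11 in WT and 22 in Eed-KO. After scaling they were 128, 118 and 114, and with the GC trend also removed, and windows chosen again on those values, 113, 98 and 80 (111, 97 and 82 in the windows as first chosen). A limit of 2 kb gave 70 in WT and 95 in Eed-KO, and 5 kb gave 1, 6 and 77, with fewer probes tested. Array design 1 alone gave 29, 33 and 198, and design 2 alone 16, 26 and 155, with fewer probes tested. A bound level of 1.5-fold gave 177, 213 and 895, and 3-fold gave 0, 5 and 109. Runs of 4 probes gave 68 in WT and 563 in Dnmt1-KO.

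The count of windows higher in Dnmt1-KO, 173, was 10 after scaling, 9 with the GC trend also removed, 47 at 5 kb, 97 and 76 on designs 1 and 2 alone, 79 at 3-fold and 337 with runs of 4. The count of lower ones, 0, was 7 after scaling, 8 with the GC trend also removed (7 in the windows as first chosen) and 2 at 1.5-fold. Both Eed-KO counts stayed at 0 under every alternative run. For the lower count, a fall of 1 would take nearly the whole WT level of most WT-bound windows before scaling. Leaving out members close to starts listed for other probes was chosen after seeing the data and gave 44, 55 and 311 bound windows and 150 higher in Dnmt1-KO. No paired analysis was possible because each genotype has 1 array per design. Without dim input probes 42, 57 and 338 windows were bound, and the files' thresholds for dim probes differ between genotypes.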
